A study of Mus musculus with 7 samples.

Results

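The genes described here take up fatty acids and burn them in mitochondria. They are 40 genes listed by function, from the uptake of fatty acids at the cell surface to the transcription factors that control oxidation, and all 40 of the 15967 genes in the deposited table met the rule. The rule asked for a completed comparison and a mean of at least 1 FPKM (fragments scaled to transcript length and library size, a level that can be compared between genes) over both libraries. The unit is inferred from the layout of the table, whose headers do not name it. All 40 also had at least 1 FPKM in each library, so none entered through one library alone. Poly-A RNA came from the sinoatrial node, the pacemaker region of the right atrium, of Sv129 mice at 3 weeks of age. The Hcn4-Cre library was taken 6 days after tamoxifen from mice with genotype Baf250af/f;Hcn4CreERT2. These mice carry floxed Baf250a (symbol Arid1a, which encodes a part of the chromatin remodeller BAF) and a tamoxifen-inducible Cre expressed from Hcn4, a gene of pacemaker cells. The control library, called the floxed control, came from mice with genotype Baf250af/f, which carry the floxed allele without Cre. The labels do not say whether the control mice received tamoxifen or how many mice went into a library. The 5 libraries of the earlier time course were not analysed here.

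Heart muscle meets most of its energy need by oxidising fatty acids. CD36 and fatty acid transport proteins bring them across the membrane, acyl-CoA synthetases activate them with coenzyme A, and the carnitine shuttle carries them into the mitochondrion. There each turn of beta-oxidation removes a pair of carbons in 4 enzyme steps and hands electrons to the respiratory chain through the electron transfer flavoprotein. The nuclear receptors PPARα, PPARδ and ERRα, with the coactivators PGC-1α and PGC-1β, switch on many of these genes. Brown fat uses the same enzymes to make heat.

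With 1 library per genotype there is no replicate check, no test was possible, and no value below has an error. Each log2 ratio was taken as Hcn4-Cre over floxed control after adding 1 FPKM, so differences of weak genes are understated. Arid1a had 12.3 FPKM in the Hcn4-Cre library and 34.9 FPKM in the floxed control, a log2 ratio of -1.43, and its value includes exons outside the floxed part. The libraries also differed in tissue content and sex. The 8 markers of T cells and thymus summed to 5.72 FPKM in the Hcn4-Cre library and 2239 FPKM in the floxed control, and the 6 lung and airway markers to 17276 FPKM in the Hcn4-Cre library and 3914 FPKM in the floxed control. Xist had 93.2 FPKM in the Hcn4-Cre library and 0.379 FPKM in the floxed control, and the Y-linked Eif2s3y 0.118 FPKM in the Hcn4-Cre library and 85.8 FPKM in the floxed control. Genotype, sex and tissue content therefore cannot be told apart. The markers of the tissue named in the labels were weak. Hcn4 had 0.719 FPKM in the Hcn4-Cre library and 0.605 FPKM in the floxed control, and the 6 measured pacemaker markers summed to 19.7 FPKM in the Hcn4-Cre library and 12.2 FPKM in the floxed control. In bulk RNA, fewer cells of a type and less RNA per cell cannot be told apart.

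The starts of 6 member genes named in the results below are shown. Acacb and Ppara were past 2-fold, and no start sequence was available for Ppargc1b and Cpt1b, which were also past it. Cpt1a is the isoform that stood on the other side of equal expression from its muscle partner with the values as deposited. Hadha and Hadhb face each other at 1 locus, and Acadm is the most abundant of the 4 acyl-CoA dehydrogenases. Each printed sequence runs 5′ to 3′ on the gene's strand, from 250 bases before the start to 50 after it, as given by RefSeq for GRCm38.p6. This is a different build from the mm9 used for the expression table. Capitals mark the nuclear receptor hexamer AGGTCA, the TATA box as TATAAA, the GC box as GGGCGG and the box named CCAAT, on either strand.
Acacb (chr5:114165268-114165567, plus strand): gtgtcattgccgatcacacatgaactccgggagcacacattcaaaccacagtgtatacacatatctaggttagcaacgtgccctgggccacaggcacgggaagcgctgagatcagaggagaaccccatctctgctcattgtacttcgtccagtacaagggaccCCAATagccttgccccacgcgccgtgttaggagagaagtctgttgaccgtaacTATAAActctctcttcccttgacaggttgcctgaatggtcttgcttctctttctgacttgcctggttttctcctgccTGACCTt
Ppara (chr15:85735526-85735825, plus strand): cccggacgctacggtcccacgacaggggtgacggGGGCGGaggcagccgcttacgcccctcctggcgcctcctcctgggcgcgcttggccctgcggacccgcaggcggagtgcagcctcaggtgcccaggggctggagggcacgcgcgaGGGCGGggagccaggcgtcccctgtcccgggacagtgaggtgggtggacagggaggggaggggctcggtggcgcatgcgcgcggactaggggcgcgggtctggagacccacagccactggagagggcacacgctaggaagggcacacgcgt
Cpt1a (chr19:3323051-3323350, plus strand): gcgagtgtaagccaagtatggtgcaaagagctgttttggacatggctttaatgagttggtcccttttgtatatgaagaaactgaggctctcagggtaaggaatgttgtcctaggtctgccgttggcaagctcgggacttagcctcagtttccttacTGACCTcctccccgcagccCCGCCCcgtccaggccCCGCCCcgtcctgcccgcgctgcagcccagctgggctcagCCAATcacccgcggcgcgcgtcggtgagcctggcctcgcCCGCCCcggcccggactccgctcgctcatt
Hadha (chr5:30154931-30155230, minus strand): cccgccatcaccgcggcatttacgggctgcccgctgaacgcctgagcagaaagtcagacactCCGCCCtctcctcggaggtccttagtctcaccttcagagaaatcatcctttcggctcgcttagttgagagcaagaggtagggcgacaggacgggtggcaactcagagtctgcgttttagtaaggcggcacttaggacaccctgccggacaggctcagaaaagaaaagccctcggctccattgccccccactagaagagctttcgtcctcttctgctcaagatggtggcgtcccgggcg
Hadhb (chr5:30155003-30155302, plus strand): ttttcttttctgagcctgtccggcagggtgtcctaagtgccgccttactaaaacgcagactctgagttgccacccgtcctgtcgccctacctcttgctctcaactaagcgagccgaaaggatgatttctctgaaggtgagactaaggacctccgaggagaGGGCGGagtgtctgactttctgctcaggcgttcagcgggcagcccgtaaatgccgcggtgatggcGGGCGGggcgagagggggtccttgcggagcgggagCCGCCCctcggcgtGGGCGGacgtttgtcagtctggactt
Acadm (chr3:153944594-153944893, minus strand): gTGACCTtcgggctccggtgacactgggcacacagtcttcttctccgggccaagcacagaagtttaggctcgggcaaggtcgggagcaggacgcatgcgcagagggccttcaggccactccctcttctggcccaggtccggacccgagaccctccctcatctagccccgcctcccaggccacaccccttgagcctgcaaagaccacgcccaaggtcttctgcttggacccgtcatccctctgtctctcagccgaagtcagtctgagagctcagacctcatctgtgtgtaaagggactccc

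The Acacb window has a TATAAA whose first base lies at -34 from the start and a CCAAT at -87, and was 51.7% G and C. The Ppara window has 2 GC boxes, no TATAAA, and was 74.7% G and C. Over the 38 windows of the 34 members that RefSeq lists here, the GC box was in 63.2%, against 35.7% of all 32851 windows of the same length. TATAAA was in 2.63% of the members' windows, that of Acacb, against 13.6% of all windows. The hexamer was in 21.1% of the members' windows and 16.3% of all. The direct repeat AGGTCANAGGTCA, which PPAR and RXR bind as a pair, was in none of the members' windows and in 0.0396% of all, and TCAAGGTCA, bound by ERRα, in none and 0.423%. Both of these longer motifs contain the hexamer, and these letters can occur outside the windows. Only exact letters were counted, and motifs this rare would seldom be met in 38 windows. Finding none therefore does not show that the members lack such sites. The windows of Hadha and Hadhb share 228 bases, since the pair is transcribed in opposite directions from starts 273 bases apart.

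Most of the 40 genes had higher levels in the Hcn4-Cre library, by less than 2-fold. Of the 40, 35 lay above equal expression, or 87.5%, against 46.0% of the 13408 genes measured. The median log2 ratio was 0.44 (quartiles 0.28 and 0.78), against -0.07 over all genes measured. At least 2-fold higher were 4 members (Ppargc1b, Cpt1b, Acacb and Ppara), or 10.0%, where 6.08% of all genes were that much higher. None was at least 2-fold lower, where 10.4% of all genes were. At 1.5-fold, 16 of 40 (40.0%) were higher and 0 lower, against 16.6% and 22.0% of all genes. Just outside the 2-fold rule were Ppargc1a at a log2 ratio of 0.97 and Acsl1 at 0.93, and Ppara, at 1.03, was just inside it. Together the members held 2.01% of the summed FPKM in the Hcn4-Cre library and 1.42% in the floxed control. The authors' deposited table called none of the 40 significant, where it called 0.564% of all genes, and its smallest p-value among them was 0.115, for Ppargc1b. Arid1a, the floxed gene itself, was not called significant there either. The authors' test compares 2 libraries and not the genotypes.

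The direction depends on what the libraries are measured against. Markers of heart muscle, adipocytes in general, smooth muscle, fibroblasts and endothelium all lay above equal expression as deposited. The 5 measured brown fat markers were mixed, with 3 above it and 2 below. All 21 cardiomyocyte markers lay above equal expression, with a median log2 ratio of 0.90 (quartiles 0.41 and 1.53, range 0.04 to 2.09). They summed to 29954 FPKM in the Hcn4-Cre library and 20581 FPKM in the floxed control. That sum was 1.46 times as high in the Hcn4-Cre library, and that of the 40 members 1.39 times. The 9 measured adipocyte markers summed to 5969 FPKM in the Hcn4-Cre library and 4825 FPKM in the floxed control. Most of each sum was Fabp4, a gene of fat and capillary cells, with 4199 FPKM in the Hcn4-Cre library and 3544 FPKM in the floxed control. All 9 also lay above equal expression, with a median log2 ratio of 0.51. The 6 markers of smooth muscle and pericytes were also all above it, with a median of 0.86 and sums of 1083 FPKM in the Hcn4-Cre library and 665 FPKM in the floxed control. So were the 6 fibroblast markers, with a median of 0.46 and sums of 2510 FPKM in the Hcn4-Cre library and 1975 FPKM in the floxed control. Of the 40 members, 7 lay above the cardiomyocyte median, against 7.83% of all genes measured. Above the adipocyte median lay 18 of the 40, against 19.6% of all genes. Among the cardiomyocyte markers the log2 ratio rose with transcript length (Spearman's rho 0.68, against 0.17 across the members). The part of length in the value used for centring was not tested. With the ratios centred on the cardiomyocyte markers the members' median became -0.46, against -0.97 for all genes measured. None was then 2-fold higher, against 0.604% of all genes. With centring on the adipocyte markers the members' median became -0.07, against -0.58 for all genes. Centring shifts every ratio alike, so the distance of the members from all genes stays the same. Setting both libraries to the same upper quartile, which moved the median of all genes to 0.13, gave the members 0.66, with 39 of 40 above equal expression, against 58.2% of all genes, and 10 at least 2-fold higher, against 10.0% of all genes. The part of the cell mixture in these values was not tested.

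**Figure D1:**
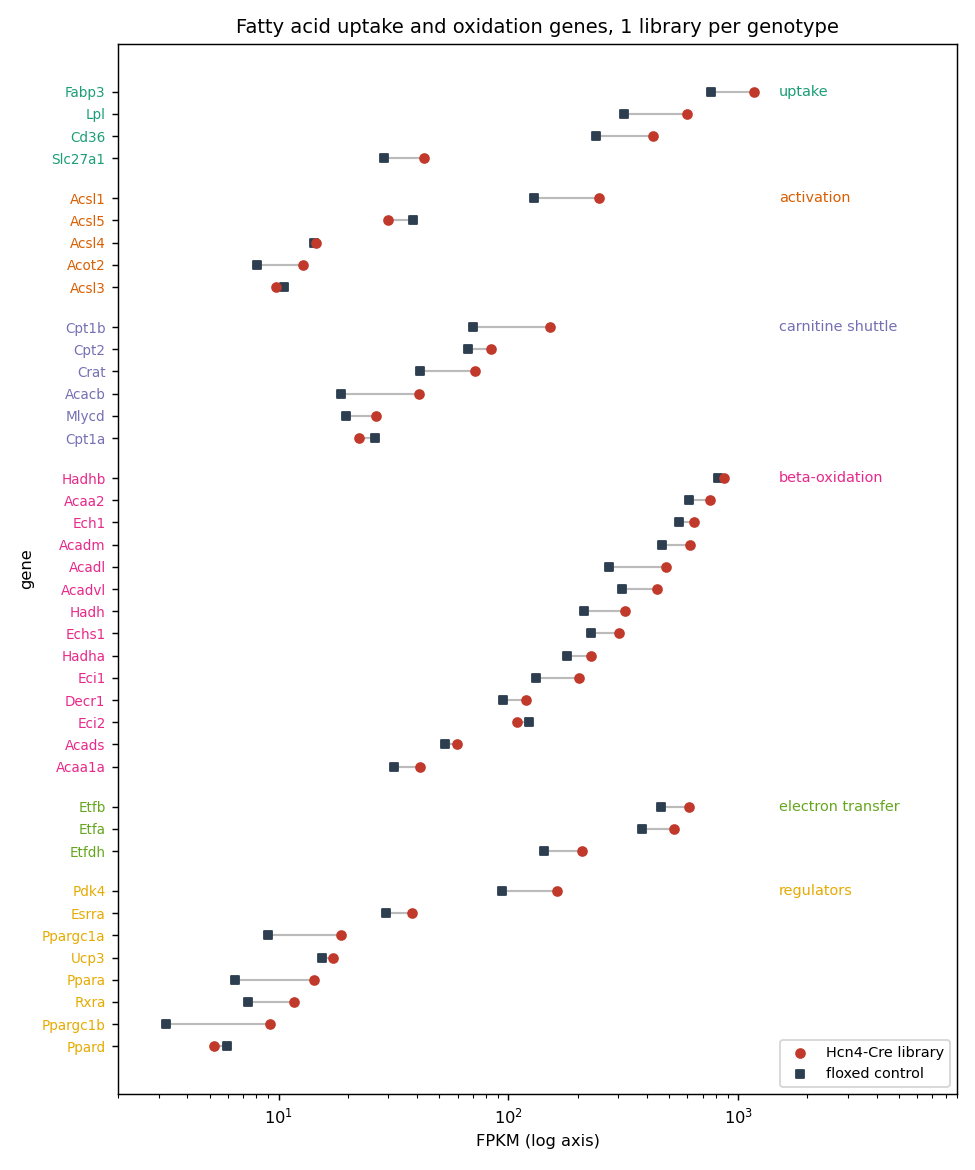
Level of each of the 40 genes in FPKM (log axis) in the Hcn4-Cre library (circles) and the floxed control (squares), grouped by step. With the values as deposited, in 35 genes the circle lies to the right of the square, and levels run from 5.25 FPKM for Ppard to 1170.1 FPKM for Fabp3 in the Hcn4-Cre library.

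The 4 uptake genes were all higher in the Hcn4-Cre library as deposited, and their median log2 ratio was 0.72, or -0.17 when centred on the cardiomyocyte markers. Fabp3, the fatty acid binding protein of heart muscle, had 1170.1 FPKM in the Hcn4-Cre library, the highest level of any member there, and 760.6 FPKM in the floxed control. Lpl, the lipase that frees fatty acids from lipoproteins, had 596 FPKM in the Hcn4-Cre library and 319 FPKM in the floxed control, a log2 ratio of 0.90. Cd36, the main fatty acid translocase of heart and fat, had 427 FPKM in the Hcn4-Cre library and 241 FPKM in the floxed control, a log2 ratio of 0.83. Slc27a1, a transport protein of muscle and fat, had 42.9 FPKM in the Hcn4-Cre library and 28.7 FPKM in the floxed control. Lpl and Cd36 are also expressed by adipocytes and macrophages. The 9 macrophage markers had a median log2 ratio of 0.01, with 5 above and 4 below equal expression, and sums of 767 FPKM in the Hcn4-Cre library and 657 FPKM in the floxed control. The 8 endothelial markers, among them Gpihbp1, which anchors the Lpl protein to capillaries, had a median of 0.47 and sums of 537 FPKM in the Hcn4-Cre library and 414 FPKM in the floxed control.

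Of the genes that add coenzyme A to fatty acids, only Acsl1 was past 1.5-fold, and the step with Acot2 had a median log2 ratio of 0.03, or -0.87 when centred on the cardiomyocyte markers. Acsl1, the main synthetase of heart and fat, had 247 FPKM in the Hcn4-Cre library and 129 FPKM in the floxed control. Acsl5 had 30.0 FPKM in the Hcn4-Cre library and 38.3 FPKM in the floxed control, a log2 ratio of -0.34, the lowest of all 40. Acsl3 and Acsl4 had 9.70 and 14.5 FPKM in the Hcn4-Cre library, against 10.5 and 14.2 FPKM in the floxed control, and the log2 ratio of Acsl3, -0.10, became 0.10 with the same upper quartile. Acsl1 thereby made up 81.7% of the FPKM of the 5 long-chain synthetases in the Hcn4-Cre library and 66.9% in the floxed control, while Acsl5 made up 9.94% in the Hcn4-Cre library and 19.8% in the floxed control. Acot2, a mitochondrial thioesterase that removes coenzyme A again, had 12.8 FPKM in the Hcn4-Cre library and 8.02 FPKM in the floxed control. Acot2 has close copies, so reads may be split among them.

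In the carnitine shuttle 5 of 6 genes were higher in the Hcn4-Cre library, the median log2 ratio was 0.59, or -0.31 when centred on the cardiomyocyte markers, and the CPT1 isoforms lay on opposite sides of equal expression as deposited. Cpt1b, the muscle carnitine palmitoyltransferase at the outer mitochondrial membrane, had 152 FPKM in the Hcn4-Cre library and 69.9 FPKM in the floxed control, a log2 ratio of 1.11. Cpt1a, the form known from liver and also found in many other tissues, had 22.4 FPKM in the Hcn4-Cre library and 26.2 FPKM in the floxed control, a log2 ratio of -0.22 that became 0.00023 with the same upper quartile. The muscle form was thus 6.80 times the other in the Hcn4-Cre library and 2.67 times in the floxed control, a quotient of 2.54 that no scaling of the libraries can alter. Cpt1b shares its locus in the table with Chkb, so reads at this locus may be shared. Chkb had 34.9 FPKM in the Hcn4-Cre library and 29.6 FPKM in the floxed control. Cpt2, the partner enzyme on the inner membrane, had 83.6 FPKM in the Hcn4-Cre library and 66.5 FPKM in the floxed control, and Crat, which moves acetyl groups onto carnitine, had 71.4 FPKM in the Hcn4-Cre library and 41.3 FPKM in the floxed control.

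Malonyl-CoA inhibits CPT1, and the genes that make and remove it at the mitochondrion were both higher in the Hcn4-Cre library as deposited. Acacb, the mitochondrial acetyl-CoA carboxylase that makes malonyl-CoA, had 40.9 FPKM in the Hcn4-Cre library and 18.7 FPKM in the floxed control, a log2 ratio of 1.09. Mlycd, which breaks malonyl-CoA down, had 26.4 FPKM in the Hcn4-Cre library and 19.7 FPKM in the floxed control, a log2 ratio of 0.41. Acaca, the cytosolic carboxylase of fatty acid synthesis, lay on the other side, with 18.7 FPKM in the Hcn4-Cre library and 31.6 FPKM in the floxed control. Acacb therefore made up 68.6% of the pair's FPKM in the Hcn4-Cre library and 37.2% in the floxed control.

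**Figure D2:**
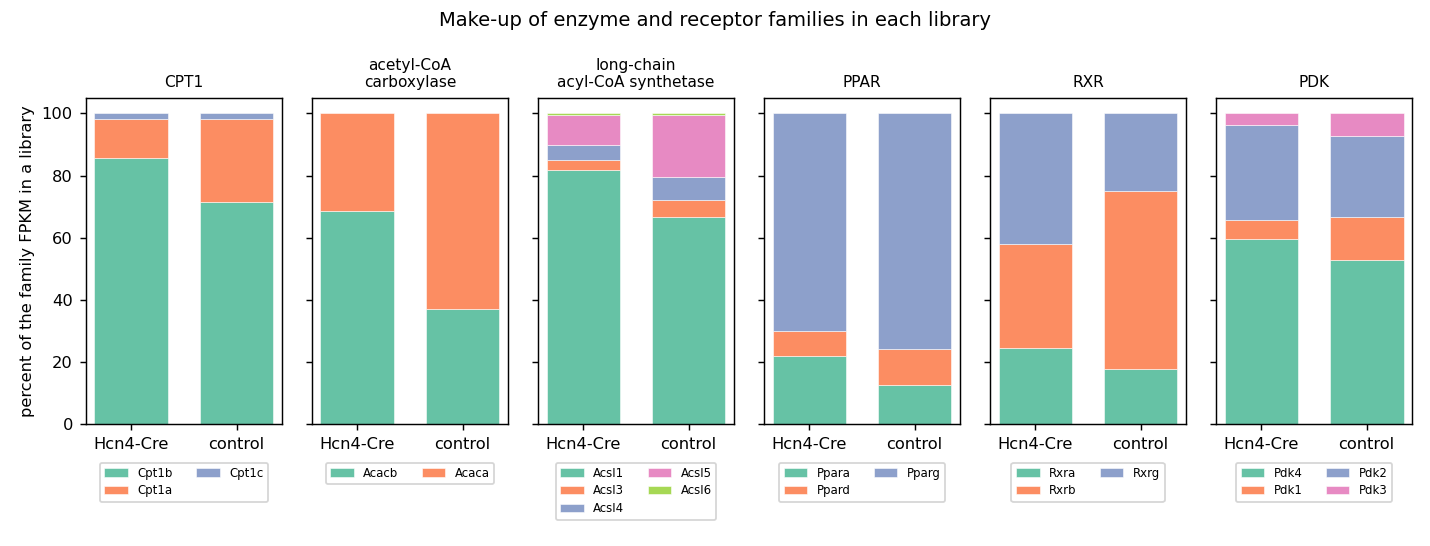
Share of each family's FPKM held by its members, in percent, in the Hcn4-Cre library (left bar of each panel) and the floxed control (right bar). Cpt1b held 85.6% of CPT1 in the Hcn4-Cre library and 71.4% in the floxed control, and Acacb held 68.6% of acetyl-CoA carboxylase in the Hcn4-Cre library and 37.2% in the floxed control.

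The 14 beta-oxidation enzymes had a median log2 ratio of 0.35, or -0.54 when centred on the cardiomyocyte markers. Of these, 13 lay above equal expression as deposited, and none was 2-fold apart. They made up 53.2% of the members' FPKM in the Hcn4-Cre library and 58.1% in the floxed control. Among the acyl-CoA dehydrogenases, which act on chains of falling length, Acadl (long chains) had 484 FPKM in the Hcn4-Cre library and 274 FPKM in the floxed control, a log2 ratio of 0.82 and the highest of the 14. Acadvl (very long chains) had 442 FPKM in the Hcn4-Cre library and 313 FPKM in the floxed control, and Acadm (medium chains) had 614 FPKM in the Hcn4-Cre library and 467 FPKM in the floxed control. Acads (short chains) was lowest of the 4 in level and in log2 ratio, with 59.7 FPKM in the Hcn4-Cre library and 53.1 FPKM in the floxed control, a log2 ratio of 0.17.

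The trifunctional protein, which carries out the later steps on long chains, is built from Hadha and Hadhb. Hadhb had 866 FPKM in the Hcn4-Cre library and 818 FPKM in the floxed control, a log2 ratio of 0.08. Hadha had 229 FPKM in the Hcn4-Cre library and 180 FPKM in the floxed control, a log2 ratio of 0.34. The divergent pair whose shared start region is printed above thus differed in level, with Hadhb at 3.78 times Hadha in the Hcn4-Cre library and 4.54 times in the floxed control. For shorter chains, the hydratase Echs1 had 302 FPKM in the Hcn4-Cre library and 228 FPKM in the floxed control. The dehydrogenase Hadh had 321 FPKM in the Hcn4-Cre library and 214 FPKM in the floxed control, a log2 ratio of 0.59. The thiolase Acaa2 had 755 FPKM in the Hcn4-Cre library and 612 FPKM in the floxed control, a log2 ratio of 0.30.

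The auxiliary enzymes for unsaturated chains lay on both sides of equal expression as deposited. The isomerase Eci1 had 202 FPKM in the Hcn4-Cre library and 131 FPKM in the floxed control, a log2 ratio of 0.62. Eci2, which acts in mitochondria and peroxisomes, was the 1 gene of the step below equal expression, with 109 FPKM in the Hcn4-Cre library and 122 FPKM in the floxed control, and its log2 ratio of -0.17 became 0.056 with the same upper quartile. Decr1 had 119 FPKM in the Hcn4-Cre library and 95.1 FPKM in the floxed control, and Ech1 had 641 FPKM in the Hcn4-Cre library and 551 FPKM in the floxed control. Acaa1a, a peroxisomal thiolase with a close copy in Acaa1b, had 41.2 FPKM in the Hcn4-Cre library and 31.8 FPKM in the floxed control.

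The 3 electron transfer genes lay close together, between log2 ratios of 0.40 and 0.54, with a median of 0.46, or -0.43 when centred on the cardiomyocyte markers. Etfa and Etfb, the subunits of the flavoprotein that collects electrons from the acyl-CoA dehydrogenases, had 528 and 611 FPKM in the Hcn4-Cre library, against 382 and 462 FPKM in the floxed control. Etfdh, which passes the electrons on to ubiquinone, had 208 FPKM in the Hcn4-Cre library and 142 FPKM in the floxed control. None of the 3 reached 1.5-fold.

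Regulators ran from log2 ratios of -0.16 to 1.26, with a median of 0.69, or -0.20 when centred on the cardiomyocyte markers. Ppargc1b, the coactivator PGC-1β, had the highest log2 ratio of the 40, with 9.14 FPKM in the Hcn4-Cre library and 3.22 FPKM in the floxed control, and 3.24% of all measured genes had a ratio at or above it. Ppargc1a, the coactivator PGC-1α, had 18.6 FPKM in the Hcn4-Cre library and 9.02 FPKM in the floxed control, a log2 ratio of 0.97. Ppara had 14.2 FPKM in the Hcn4-Cre library and 6.47 FPKM in the floxed control, whereas Ppard, a relative expressed in most tissues, had 5.25 FPKM in the Hcn4-Cre library and 5.97 FPKM in the floxed control, a log2 ratio of -0.16 that became 0.034 with the same upper quartile. Ppara was therefore 2.71 times Ppard in the Hcn4-Cre library and 1.08 times in the floxed control. Pparg, the family member of fat cells, was the most abundant of the 3 in both, with 69.9% of their FPKM in the Hcn4-Cre library and 75.8% in the floxed control. Rxra, the partner receptor, had 11.7 FPKM in the Hcn4-Cre library and 7.38 FPKM in the floxed control, a log2 ratio of 0.60. Esrra, the receptor ERRα, had 38.2 FPKM in the Hcn4-Cre library and 29.3 FPKM in the floxed control, and shares its locus in the table with Trmt112.

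Pdk4 and Ucp3, target genes of the PPAR receptors, were grouped with the regulators. Pdk4, a kinase that shuts off glucose-derived pyruvate from the citric acid cycle when fat is burnt, had 163 FPKM in the Hcn4-Cre library and 93.8 FPKM in the floxed control, a log2 ratio of 0.79. Pdk2 had 83.4 FPKM in the Hcn4-Cre library and 46.4 FPKM in the floxed control, so the ratio of Pdk4 to Pdk2 was 1.95 in the Hcn4-Cre library and 2.02 in the floxed control. Pdk1 lay the other way, with 16.8 FPKM in the Hcn4-Cre library and 24.3 FPKM in the floxed control. Ucp3, a mitochondrial carrier of muscle and brown fat, had 17.2 FPKM in the Hcn4-Cre library and 15.4 FPKM in the floxed control, a log2 ratio of 0.15.

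**Figure D3:**
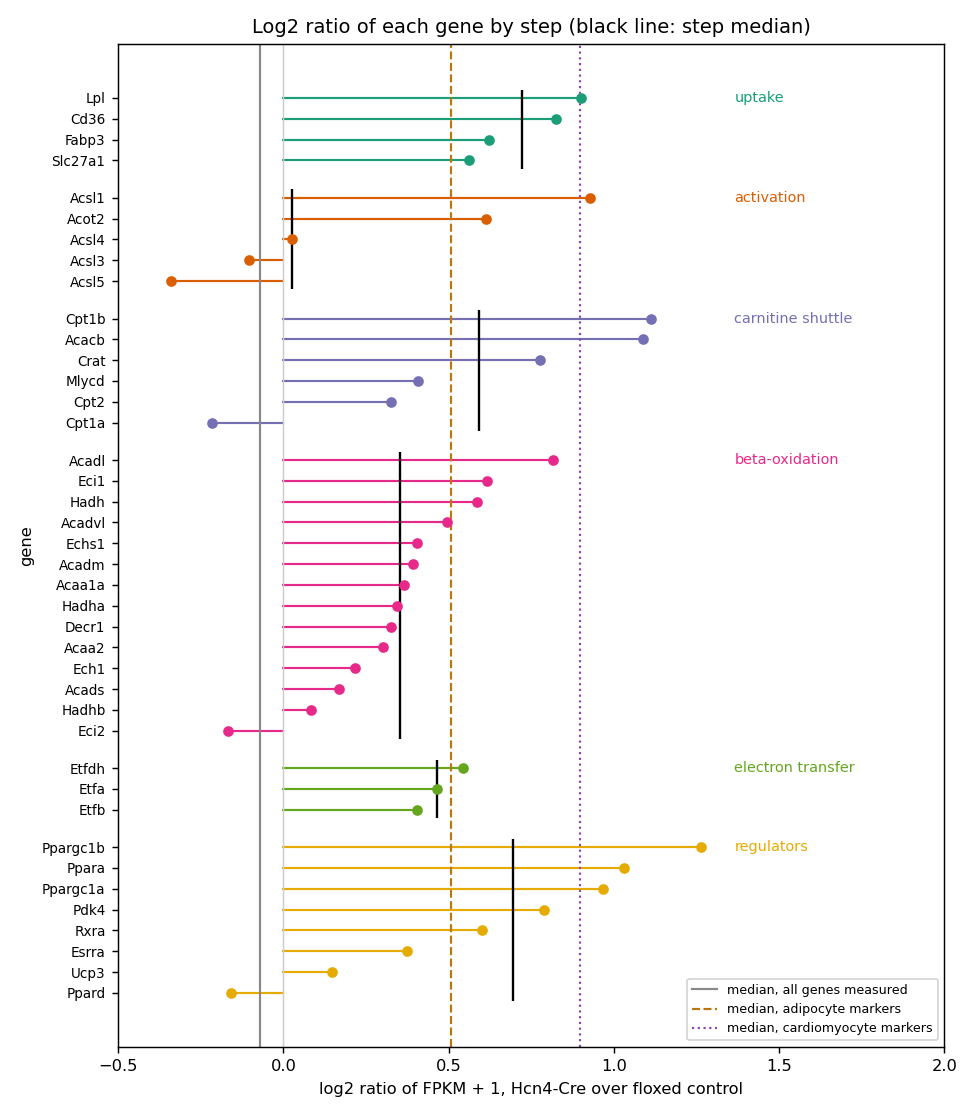
Log2 ratio of FPKM + 1, Hcn4-Cre over floxed control, for each gene by step, with the step median as a black line and the medians of all genes and of 2 marker lists as vertical lines. The activation, carnitine, beta-oxidation and regulator steps each span both sides of 0, and the genes run from Acsl5 at -0.34 to Ppargc1b at 1.26. Above the cardiomyocyte marker median of 0.90 lie 7 of the 40 genes, against 7.83% of all genes measured.

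Other genes of lipid and pyruvate metabolism were described in 10 lists of 116 genes. Of 113 measured, 80 lay above equal expression, against 46.0% of all genes, with a median log2 ratio of 0.28. At least 2-fold higher were 5 and lower 6, where 6.08% and 10.4% of all genes were. As deposited, the genes of fatty acid synthesis had a median of -0.67, on the other side of 0 from beta-oxidation at 0.35. Of these 9 genes, 8 lay below equal expression and 1 above, with 4 at least 2-fold lower and 0 higher. When centred on the cardiomyocyte markers both medians were below 0, at -1.57 for synthesis and -0.54 for beta-oxidation. Fasn, the fatty acid synthase, had 38.3 FPKM in the Hcn4-Cre library and 125 FPKM in the floxed control, and Scd1, a desaturase, had 59.3 FPKM in the Hcn4-Cre library and 145 FPKM in the floxed control. Acly, which makes cytosolic acetyl-CoA, had 64.2 FPKM in the Hcn4-Cre library and 135 FPKM in the floxed control, and Me1, malic enzyme, had 33.2 FPKM in the Hcn4-Cre library and 72.8 FPKM in the floxed control. The T cell and dividing-cell markers were lower in the same direction, with the 6 dividing-cell markers at a sum of 13.9 FPKM in the Hcn4-Cre library and 417 FPKM in the floxed control, and their part in these values was not tested.

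The citric acid cycle, which burns the acetyl-CoA from beta-oxidation, had all 15 genes above equal expression as deposited, against 46.0% of all genes. None was past 2-fold, where 6.08% of all genes were higher and 10.4% lower. The median of the 15 was 0.52, or -0.38 when centred on the cardiomyocyte markers. All 12 further mitochondrial acyl-CoA enzymes measured were above equal expression as deposited, between 0.19 and 0.68, again against 46.0% of all genes. Among uptake and lipolysis genes, Slc27a2 had 33.0 FPKM in the Hcn4-Cre library and 12.9 FPKM in the floxed control, and Vldlr, a lipoprotein receptor, had 24.6 FPKM in the Hcn4-Cre library and 10.6 FPKM in the floxed control. Fabp4, the binding protein of fat and capillary cells, was the most abundant gene of these lists, at 4199 FPKM in the Hcn4-Cre library and 3544 FPKM in the floxed control. Fabp5, a relative in skin and macrophages, had 131 FPKM in the Hcn4-Cre library and 238 FPKM in the floxed control.

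Regulators and PPAR targets outside the 40 were mixed, with a median of 0.16. Of 22, 2 were at least 2-fold higher and 1 lower, where 6.08% and 10.4% of all genes were. Prkaa2, the AMP-activated kinase subunit of muscle, had 17.6 FPKM in the Hcn4-Cre library and 6.02 FPKM in the floxed control, a log2 ratio of 1.40. Lpin1, a phosphatidate phosphatase and coactivator, had 45.3 FPKM in the Hcn4-Cre library and 18.4 FPKM in the floxed control. Nrf1, a factor for mitochondrial genes, was lower, with 5.33 FPKM in the Hcn4-Cre library and 17.0 FPKM in the floxed control. Of the peroxisomal list 1 of 14 was at least 2-fold higher, Acox2, with 2.49 FPKM in the Hcn4-Cre library and 0.710 FPKM in the floxed control. Of the ketone list 1 of 5 was lower, Bdh1, a dehydrogenase of ketone bodies, with 2.46 FPKM in the Hcn4-Cre library and 8.15 FPKM in the floxed control. In the pyruvate dehydrogenase, thioesterase and carnitine lists none of the measured genes was past 2-fold.

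**Figure D4:**
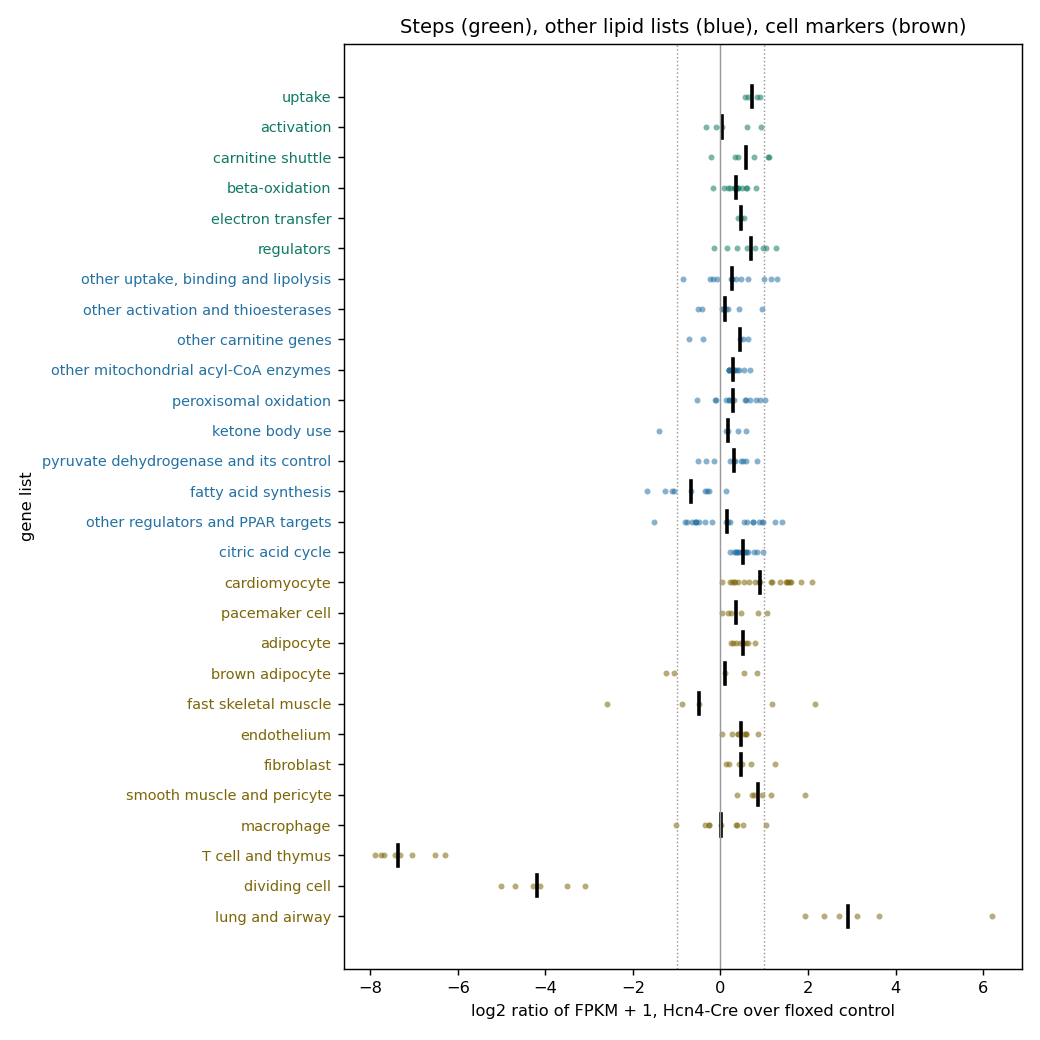
Log2 ratio of FPKM + 1, Hcn4-Cre over floxed control, of every measured gene in the steps, the other lipid and pyruvate lists and the marker lists, with the median of each list as a black bar and dotted lines at 2-fold. The 6 step medians lie between 0.03 and 0.72, that of fatty acid synthesis at -0.67 and that of cardiomyocyte markers at 0.90.

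Ucp1 and Cidea, markers of heat-producing fat, were strong in both libraries, while the other markers of that list were weak. Ucp1, the uncoupling protein that defines brown adipocytes, had 739 FPKM in the Hcn4-Cre library and 691 FPKM in the floxed control. Cidea had 412 FPKM in the Hcn4-Cre library and 286 FPKM in the floxed control. Dio2 and Elovl3 were lower in the Hcn4-Cre library, at 4.46 and 4.90 FPKM against 10.4 and 13.0 FPKM in the floxed control. Prdm16 had 2.23 FPKM in the Hcn4-Cre library and 0.805 FPKM in the floxed control, and Zic1 was below the minimum. The 5 measured brown fat markers had a median log2 ratio of 0.10 and sums of 1163 FPKM in the Hcn4-Cre library and 1001 FPKM in the floxed control. Markers of fast skeletal muscle were weak, and their sum and median differed in direction. The 5 measured summed to 29.0 FPKM in the Hcn4-Cre library and 20.1 FPKM in the floxed control, with a median log2 ratio of -0.49 and 3 of 5 below equal expression. Tnni2 had 19.9 FPKM in the Hcn4-Cre library and 3.66 FPKM in the floxed control, whereas Mylpf had 0.691 FPKM in the Hcn4-Cre library and 9.27 FPKM in the floxed control. How much of each member's FPKM came from heart muscle or from fat was not tested.

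**Figure D5:**
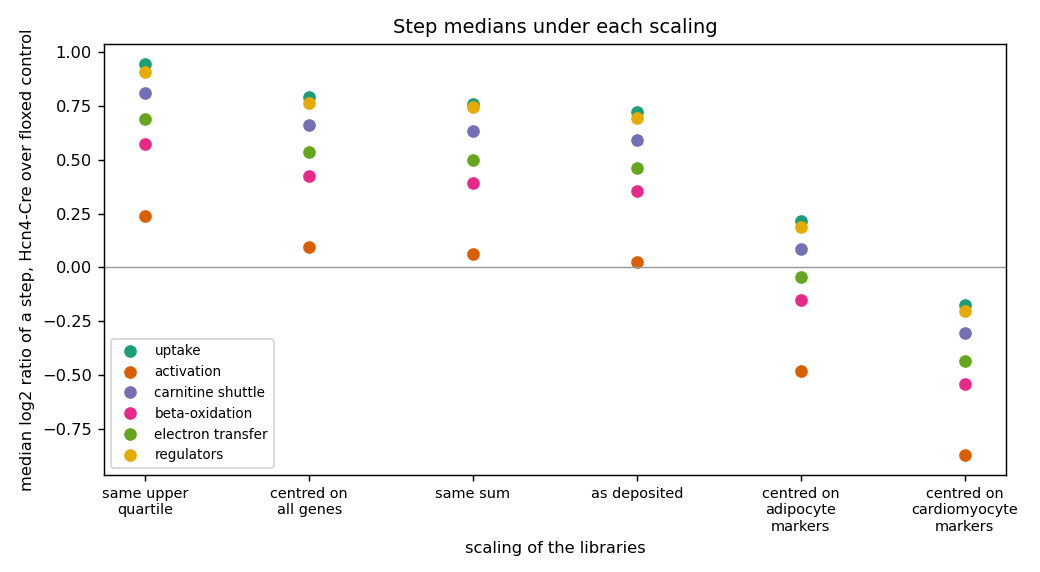
Median log2 ratio of each step, Hcn4-Cre over floxed control, under 6 scalings of the libraries. All 6 medians are above 0 with the values as deposited. All 6 are below 0 when the ratios are centred on the cardiomyocyte markers, with uptake at -0.17 and activation at -0.87. The median of all genes was then -0.97.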

How the data were processed

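Poly-A RNA of 1 library per genotype was compared. Per the submitters' processing notes, the tools were TopHat, Bowtie and Cufflinks and the genome build was mm9. Not given in the sources used here were tool versions, the gene annotation and any scaling between libraries. The deposited table gives 1 value per gene and library under headers that name no unit. These were taken as FPKM because the deposited columns have the layout of a Cuffdiff table, an inference that holds for every level printed. It also gives the authors' p-value, q-value, log2 fold change and test score. The deposited log2 fold change equals Hcn4-Cre over floxed control FPKM within 1.38e-05. FPKM summed to 485189 in the Hcn4-Cre library and 497407 in the floxed control.

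Read depth is not given. The most frequent ratio of Hcn4-Cre to floxed control, 0.824 in 32 genes, would be 1 read in each library at a relative depth of 1.21, which is tentative, so no counting interval is given. The 2 rows marked HIDATA and 32 small-RNA genes were left out, and 13408 genes had a mean of at least 1 FPKM. Log2 ratios used a pseudocount of 1, and the size rule was 2-fold, with no test. The calculation of ratios and counts returned the folds set in simulated levels without noise, which checks the arithmetic only. Members and lists were chosen with earlier results of these data known. Genes named were all members, and of each other list those past 2-fold or the most abundant, except 1 gene that is not reported here; other genes, and the family comparisons, were chosen after values were seen. In 5 members the locus is shared with another gene, and strand use is not given in the sources used here. Alternatives were other pseudocounts (0.1 and 5), minima, scalings, centrings and a 1.5-fold rule. Python 3.11.15 with pandas 2.3.3 was used.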

Additional observations from a re-analysis of the deposited data

How the results depend on the processing

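No paired analysis was possible because each genotype is 1 library, and for the same reason no library could be left out. Members at least 2-fold higher, 4 as reported, were 1 with a pseudocount of 5, against 1.78% of all genes. They were 10 with the same upper quartile, against 10.0%, and 16 at 1.5-fold, against 16.6%. With cardiomyocyte centring 0 of 40 were higher and 5 lower, against 0.604% and 48.1% of all genes. With adipocyte centring 0 were higher, against 1.89%. The members' median log2 ratio of 0.44, against -0.07 for all genes, was 0.66 with the same upper quartile, against 0.13. It was -0.46 with cardiomyocyte centring, against -0.97, and -0.072 with adipocyte centring, against -0.58. With cardiomyocyte centring the medians were -0.17 for uptake, -0.87 for activation, -0.31 for the carnitine shuttle, -0.54 for beta-oxidation, -0.43 for electron transfer and -0.20 for regulators. With adipocyte centring they were 0.22, -0.48, 0.084, -0.15, -0.043 and 0.19 in that order. The upper quartile gave activation 0.24 and beta-oxidation 0.58, and activation was 0.061 with the same sum and 0.10 with centring on all genes. Members minus adipocyte markers, -0.072, was -0.037 with no minimum. Centring moves all log2 ratios alike, so it cannot change their order, and no scaling can change the ratio of a pair of genes within a library. With the same upper quartile 39 of 40 members lay above 0, against 58.2% of all genes.

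The other pathway genes were 5 higher and 6 lower of 113 measured. They had 8 higher with a pseudocount of 0.1, against 9.41% of all genes, and 3 with 5, against 1.78%. They had 9 higher with the same sum, against 8.23%, and 15 with the same upper quartile, against 10.0%. Centring on all genes gave 10 higher, against 7.21%. With cardiomyocyte centring they were 0 higher and 32 lower, against 0.604% and 48.1% of all genes. With adipocyte centring they were 0 and 19, against 1.89% and 26.1%. At 1.5-fold they were 26 and 12, against 16.6% and 22.0%. Fatty acid synthesis stayed below 0 in every alternative and was -1.57 and -1.18 with the cardiomyocyte and adipocyte centrings. Over all genes, 815 higher and 1397 lower (36.8% of calls higher) became 1262 higher with a pseudocount of 0.1, 238 and 805 with 5 (22.8%), 449 higher with a minimum of 5 FPKM (29.7%) and 1342 higher with the same upper quartile (54.8%). They became 81 and 6446 with cardiomyocyte centring (1.24%), 253 and 3504 with adipocyte centring (6.73%), and 2226 and 2947 at 1.5-fold. Read depth is not known, so the precision of the weaker genes cannot be given.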

Other observations

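Transcript length was set against the log2 ratio, and differences between lists were not tested. Across the 40 members, which share both libraries, Spearman's rho between the length of the GENCODE M21 transcript and the log2 ratio was 0.17, and across the 14 beta-oxidation genes it was 0.07. It was 0.68 across the 21 cardiomyocyte markers, 0.58 across the 9 adipocyte markers and 0.74 across the 15 citric acid cycle genes, against 0.03 across 13351 genes with a length. The median log2 ratio was 0.78 in the 13 members with the longest transcripts and 0.40 in the 13 with the shortest. The mean level of a member had a rho of 0.03 with its log2 ratio.

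The retinoid X receptors, which pair with the PPARs on DNA, differed in make-up between the libraries. Rxrg held 41.9% of the FPKM of the 3 genes in the Hcn4-Cre library and 24.9% in the floxed control, Rxrb 33.6% in the Hcn4-Cre library and 57.4% in the floxed control, and Rxra 24.5% in the Hcn4-Cre library and 17.7% in the floxed control. Among the ERR receptors, Esrrg had 4.80 FPKM in the Hcn4-Cre library and 2.01 FPKM in the floxed control and Esrrb 1.94 FPKM in the Hcn4-Cre library and 0.764 FPKM in the floxed control, both weaker than Esrra in each library. Fabp3 was 0.279 times Fabp4 in the Hcn4-Cre library and 0.215 times in the floxed control. These comparisons were chosen after their values had been seen.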
